A study of Mus musculus with 300 samples.

Results

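An intercross of the inbred mouse strains MRL/MpJ, called MRL, and SM/J, called SM, gave F2 animals whose female livers were examined for the transcripts that differed most between animals, for the transcripts that rose and fell together, and for those whose animals fell into separate levels. The animals were those whose arrays are titled as F2 females. All but 4 of them were used, the libraries 2293, 2116, 2295 and 2122 being left out, and they made up 43.7% of the 300 arrays. The comparisons used 146 of 147 F2 males, with library 2308 left out, and 3 females each of MRL, of the F1 generation and of SM. MRL females were mated to SM males and their F1 offspring were intercrossed, so that F2 animals carry segregating MRL and SM alleles in a shared hybrid background. All mice were 13 weeks old, ate chow, were fasted before collection and received no treatment, and each array held the total RNA of 1 liver, so that the replicates are separate animals. No genotypes were used here.

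In an F2 intercross each locus gives animals homozygous for either parental allele and heterozygous animals, with 25%, 50% and 25% as the shares expected under Mendelian inheritance. A locus that changes the level of a transcript strongly can therefore split the animals into separate levels, and transcripts under the same locus, or responding to the same state of the liver, vary together. Mouse liver is also known for many transcripts that differ between the sexes, a difference set in large part by the timing of growth hormone secretion and by sex steroids.

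The deposited table holds 34406 rows, each an Ensembl transcript, with expression on a log2 scale between 4.66 and 13.60. The rows could not be paired with gene names in the tables used here, so transcripts are given by their identifiers, no role is given for any of them, and the liver label could not be checked against marker genes. The greatest difference in mean between F2 females and F2 males was that of ENSMUST00000082214_at, which ranged from 11.27 to 12.20 in the F2 females kept, with a median of 11.95, and from 5.66 to 8.95 in the 146 F2 males, with a median of 6.04. The groups did not overlap on it, but the transcript was picked for this difference and is no check of the sex labels. F2 females were spread over 14 labelled batches of 2 to 16 animals, and F2 males over 13 batches of 5 to 16. Batch means and each transcript's slope on the SD of the array were subtracted within each sex, and SDs, correlations and levels below come from these adjusted values, while lowest, median and highest values of animals are the deposited ones. The adjustment took a median of 28.5% of the variance over all transcripts and 9.83% over the 100 most variable ones, with a range of 2.78% to 20.9% among these.

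Several libraries stood apart. Of the 15 transcripts among the 100 whose mean differed by at least 2 log2 units between F2 females and F2 males, the left-out libraries 2295 and 2122 lay nearer the male mean in 14 and 11, and libraries 2293 and 2116 in 6 and 4. Among the animals kept, the median number was 0 and the highest was 6, and 71 animals had none. F1 female 1145 lay at least 1 log2 unit from the mean of the other F1 females in 26 of the 100 transcripts, against 13 for F1 female 1150 and 6 for F1 female 1149. With the 4 left-out female libraries included, 97 of the 100 transcripts remained and 63 transcripts covaried at an absolute r of at least 0.7, against 58 without those libraries.

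The spread between F2 females was concentrated in few transcripts. The median SD over all 34406 transcripts was 0.0862 log2 units and the 99th percentile was 0.331. The SD reached at least 0.5 in 93 transcripts and at least 1 in 7. The 100 with the highest SD were kept. The last one inside stood at 0.483 and the first one outside at 0.480, so the boundary fell in an unbroken run of values. Of the 100, 90 had a mean above 6.77, the median of all means. Their median SD was 0.583 in F2 females and 0.520 in F2 males, beside medians over all transcripts of 0.0862 in females and 0.0888 in males. In males 55 of the 100 were also among the 100 with the highest SD.

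The transcript with the highest SD, ENSMUST00000096418_at (SD 1.61, 95% interval 1.43 to 1.85), ranged from 7.04 to 13.14 in F2 females, with a median of 11.68, and from 5.86 to 7.69 in F2 males, with a median of 6.24. Female livers thus differed widely on this transcript, while male livers stayed in a narrow range with an SD of 0.19. The second, ENSMUST00000086148_at (SD 1.45, interval 1.28 to 1.66), ranged from 5.80 to 11.35 in females, with a median of 10.27, and from 5.26 to 6.11 in males, with a median of 5.61. Its lowest females lay within the range of the males. ENSMUST00000078869_at (SD 1.37, interval 1.22 to 1.58) varied in both sexes, from 8.02 to 12.72 in females with a median of 12.24 and from 8.12 to 12.67 in males with a median of 12.21, and its SD in males was 0.94.

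The next in order again varied mainly in females. ENSMUST00000108522_at (SD 1.33, interval 1.18 to 1.53) ranged from 5.46 to 10.33 in F2 females, with a median of 8.49, and from 5.19 to 5.96 in F2 males, with a median of 5.56. ENSMUST00000116252_at (SD 1.22, interval 1.08 to 1.40) ranged from 5.95 to 11.32 in females, with a median of 9.80, and from 5.06 to 5.92 in males, with a median of 5.29. Among the animals kept the sexes did not overlap on it, but the left-out female libraries 2295 and 2122, at 5.31 and 5.66, lay within the male range. ENSMUST00000026012_at (SD 1.18, interval 1.05 to 1.36) ranged from 6.41 to 10.98 in females, with a median of 8.98, and from 6.18 to 7.66 in males, with a median of 6.57. The intervals of these SDs assume normally distributed values.

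**Figure D1:**
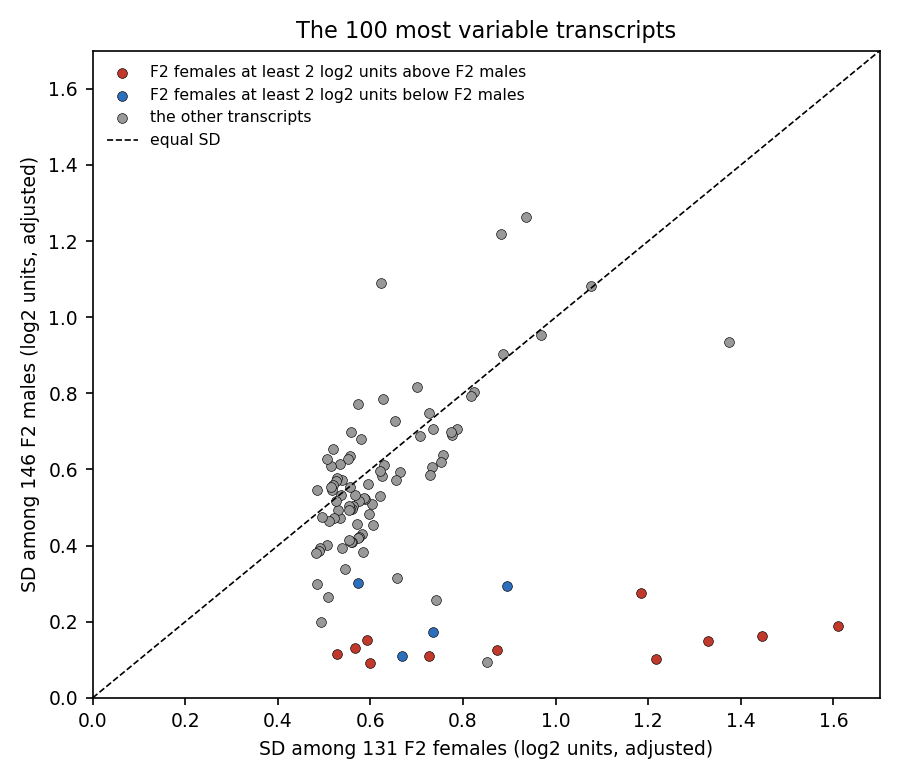
SD of the 100 most variable transcripts among the F2 females (x axis, adjusted log2 units) against the SD of the same transcripts among 146 F2 males (y axis); each point is a transcript, and the dashed line marks equal SDs. The 11 transcripts whose mean was at least 2 log2 units higher in females (red) and the 4 at least 2 lower (blue) lie below the line, and most other points lie near it.

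Transcripts with a large difference between the sexes were well represented among the 100. The mean was at least 2 log2 units higher in F2 females in 11 of the 100 and at least 2 lower in 4, beside 21 and 19 of all 34406 transcripts (0.116% of all in either direction). In 18 of the 100 the SD in females was more than 2 times that in males, and in 1 the SD in males was more than 1.5 times that in females. The transcripts lower in females were ENSMUST00000044094_at, ENSMUST00000084343_at, ENSMUST00000089129_at and ENSMUST00000035625_at, named here after their values were seen. ENSMUST00000084343_at ranged from 5.15 to 8.43 in females, with a median of 5.98, and from 10.73 to 11.57 in males, with a median of 11.25. ENSMUST00000044094_at ranged from 5.54 to 8.92 in females, with a median of 6.40, and from 9.26 to 10.86 in males, with a median of 10.34. On both the highest female kept stayed below the lowest male kept. The left-out female library 2116 was at 10.89 on ENSMUST00000084343_at, within the male range. In bulk liver, a change in the number of cells of a type and a change in RNA per cell cannot be told apart.

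Covariation among the 100 was arranged in small sets. Pearson's r reached at least 0.7 in size in 82 of the 4950 pairs (1.66%), beside 0.00541% of the pairs of all 34406 transcripts in females and 0.00759% in males. These shares describe the animals and carry no test. The pairs joined 58 of the 100 transcripts into 18 groups. Across all pairs of the 100 the median absolute r was 0.0984, so the typical pair was weakly correlated although 58 transcripts had a close partner.

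Much of this covariation lay between rows that were almost the same measurement. In 51 of the 82 pairs r was at least 0.95. Such rows can be transcripts of 1 gene that share probes, or near-identical genes, and these cannot be told apart here. With such rows merged, 76 distinct rows were left, and 26 of them formed 10 groups. In 8 of the 18 groups all rows merged into 1. The largest of these held 7 rows, and its leading pair, ENSMUST00000093406_at and ENSMUST00000101649_at, had r of 1.00 both within the 93 females at the lower level and within the 38 at the upper level. The second group held 7 rows led by ENSMUST00000113305_at and ENSMUST00000113310_at (r = 1.00), of which 6 merged into 1 and ENSMUST00000019469_at stood apart from them at r of about 0.70. The third held 6 rows led by ENSMUST00000050487_at and ENSMUST00000097563_at (r = 1.00) and merged to 3, with r between 0.87 and 1.00 over its pairs.

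F2 males, which had no part in choosing the groups, were used to test the covariation. The leading pair of each group, and of 4 groups also the leading pair after merging, gave 22 pairs. Two-sided permutation p-values from 100000 permutations for r and for Spearman's rho were adjusted over the 44 relations. In males r passed 0.05 with the same sign as in females in 20 of the 22 pairs, and rho in 19. Of the 10 pairs that were not near-identical, 8 passed on r. In 7 of the 22 pairs a transcript was 2-peaked in males, so that r takes in the gap between levels, and among the other 15 pairs 13 passed. Of the 31 pairs at or above 0.7 that were not near-identical, 28 kept their sign in males and 24 kept it with r of at least 0.7. These 31 pairs still repeat relations, so the 24 are not separate findings. ENSMUST00000019469_at was counted with each near-identical row of the second group, and near-identical rows of the third group were also counted singly.

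**Figure D2:**
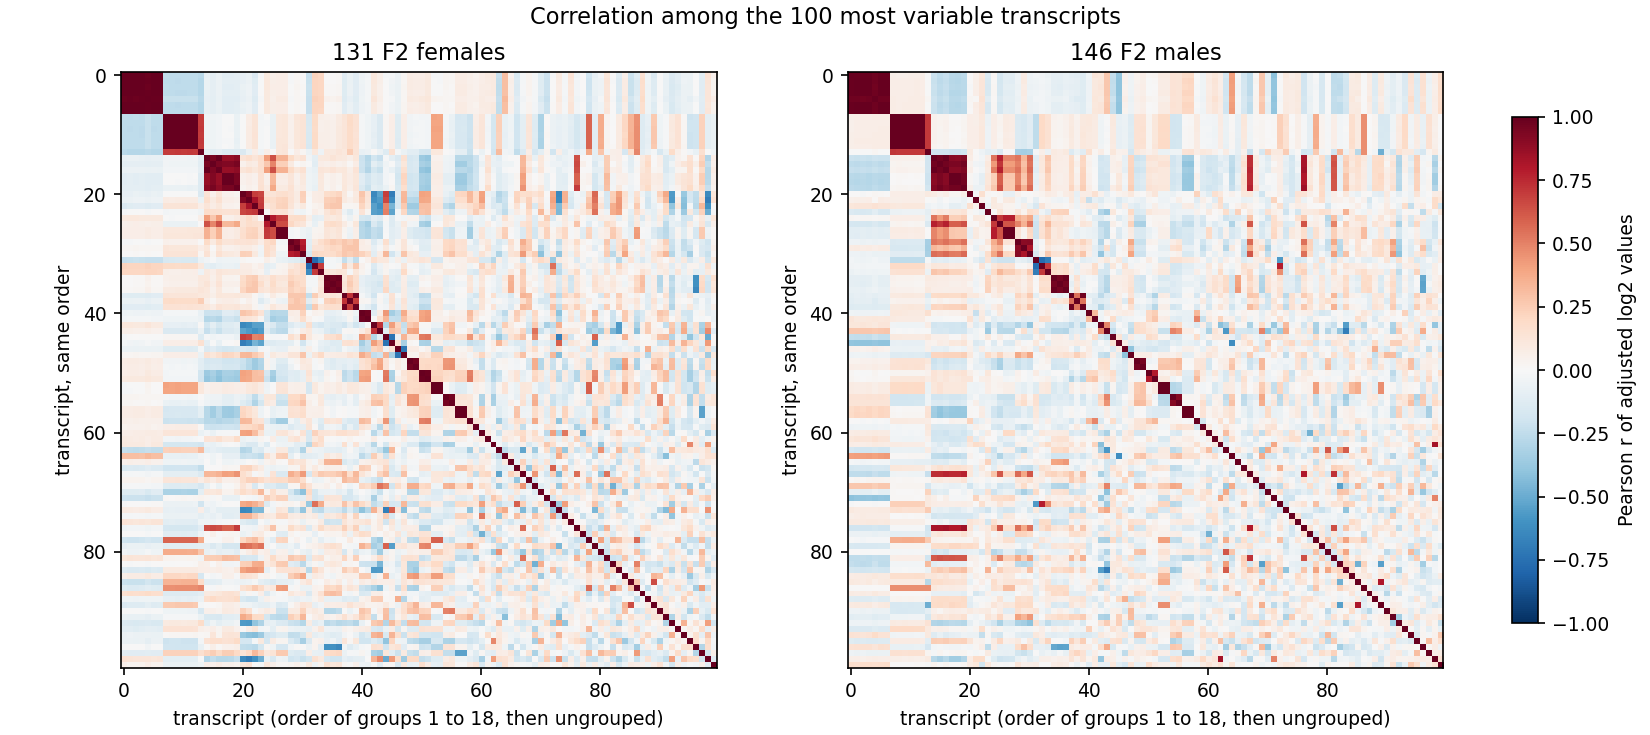
Pearson r between the 100 most variable transcripts in F2 females (left) and 146 F2 males (right), on adjusted log2 values; rows and columns run in the same order in both maps, with the 18 groups first along the diagonal. Most blocks along the diagonal are red in both sexes, and the fourth block, led by ENSMUST00000086148_at, is red in females and near white in males.

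The fourth group covaried in females. It held ENSMUST00000086148_at, ENSMUST00000108522_at, ENSMUST00000098809_at and ENSMUST00000075619_at, 4 distinct rows, with r between 0.66 and 0.93 in F2 females and between -0.06 and 0.16 in F2 males. The leading pair, ENSMUST00000086148_at and ENSMUST00000108522_at, had r of 0.54 within the 20 females at the lower level of the first transcript and 0.91 within the 111 at its upper level. In 146 F2 males r was -0.01 (adjusted p = 0.866, permutation test) and rho was -0.04 (adjusted p = 0.686, permutation test), and r was -0.03 without the 2 males farthest from the median. With the left-out male library 2308, r in males was 0.80, so that this 1 library sets the value. In males both transcripts lay within 1 log2 unit of range, between 5.26 and 6.11 and between 5.19 and 5.96, which leaves little spread to correlate. ENSMUST00000098809_at was similar, with an SD of 0.85 in females and 0.09 in males.

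The near-identical pair ENSMUST00000116252_at and ENSMUST00000092597_at behaved likewise. Within the 40 females at the lower level of the first and the 91 at the upper level r was 0.93 and 0.92. In F2 males r was 0.32 (adjusted p = 0.0015, permutation test), rho was 0.08 (adjusted p = 0.362, permutation test), and r was 0.06 without the 2 farthest males. The relation in males therefore rests on those 2 animals. With library 2308 r in males was 0.96.

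Other groups held in both sexes. ENSMUST00000075982_at and ENSMUST00000079034_at had r of 0.82 within 120 females at the lower level of the first and 0.96 within 11 at the upper level. In F2 males r was 0.77 within 133 animals and 0.91 within 13, and over all 146 the adjusted p of both r and rho was 1.19e-05 (permutation test, from the smallest p that these permutations could give), with r of 0.87 without the 2 farthest males. Their levels matched in 129 females (98.5%). Each transcript had 120 females at its lower level and 11 at its upper level, so most matches were at the common lower level. Neither transcript was peaked when each component had its own SD. ENSMUST00000050785_at joined them at r of 0.78 and 0.82 in females and 0.91 and 0.81 in males.

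Pairs with opposite directions numbered 3 of the 82, or 3 of the 31 that were not near-identical, and are named here after their values were seen. ENSMUST00000044547_at and ENSMUST00000098672_at moved against each other at r of -0.53 within the 37 females at the lower level of the second and -0.78 within the 94 at its upper level. Within F2 males r was 0.40 in 36 animals at the lower level and -0.80 in 110 at the upper level, so within levels the sign held in the larger one only. Over all F2 females r was -0.78 and rho was -0.82. Over all 146 F2 males r was -0.77 and rho was -0.83 (adjusted p = 1.19e-05 each, permutation test), values that take in the gap between levels. ENSMUST00000034992_at and ENSMUST00000052068_at had r of -0.72 in females and, in males, r of -0.40 and rho of -0.44 (adjusted p = 1.19e-05 each, permutation test), with r of -0.43 without the 2 farthest males. The third, ENSMUST00000031633_at and ENSMUST00000084343_at, joined a transcript higher in females to one higher in males. Its r was -0.40 within 18 females and -0.48 within 113, against 0.15 over F2 males (adjusted p = 0.0844, permutation test) with rho of 0.15 (adjusted p = 0.0710, permutation test), and -0.08 in males with library 2308.

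**Figure D3:**
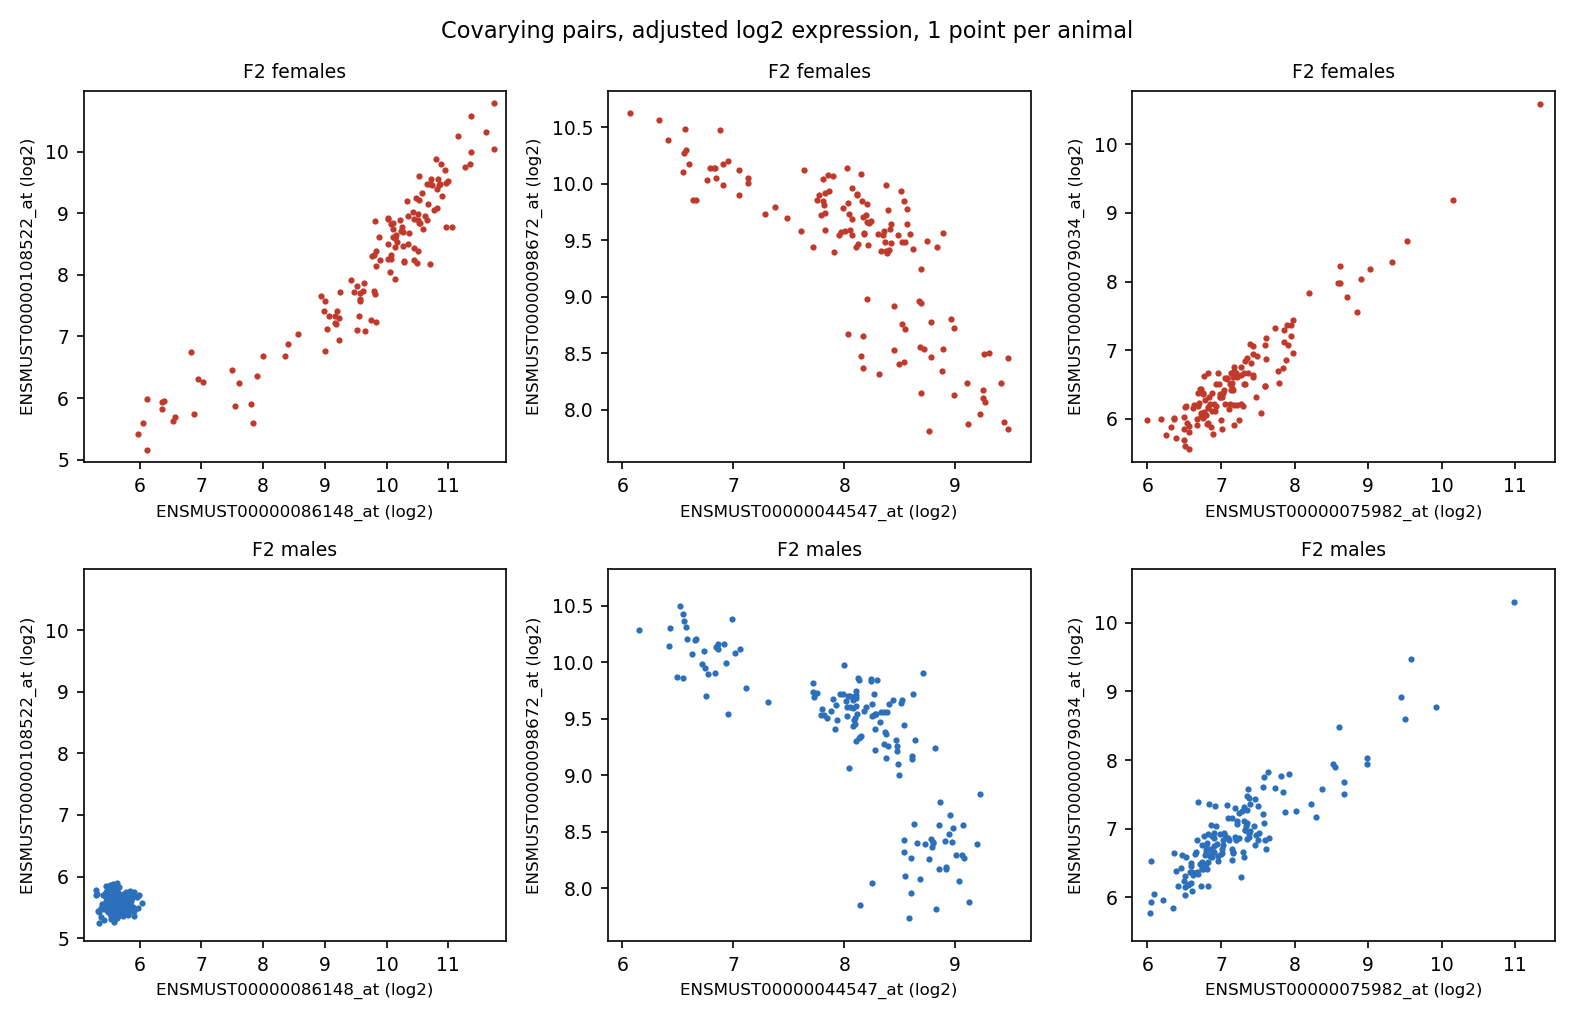
Adjusted log2 expression of 3 covarying pairs, with F2 females in the upper row and F2 males in the lower row (146 points) on the same axes; each point is an animal. ENSMUST00000086148_at and ENSMUST00000108522_at form a long diagonal in females and a compact cloud at the low end in males, while the other pairs keep their shape, falling for ENSMUST00000044547_at with ENSMUST00000098672_at and rising for ENSMUST00000075982_at with ENSMUST00000079034_at.

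The 100 differed widely in how many transcripts of the whole table they correlated with. Counting transcripts with an absolute r of at least 0.5 as partners, the median number of partners was 37 for the 100 and 1 for all transcripts in F2 females, and 31 for the 100 and 1 for all in F2 males. The 100 were chosen for a high SD in these females, so their number of partners in females is a description. The highest number among the 100 was 404, while ENSMUST00000099049_at and ENSMUST00000098035_at had 1 each in females. ENSMUST00000108522_at had 186 partners in females and 0 in males, and ENSMUST00000086148_at had 151 in females and 0 in males. ENSMUST00000074557_at of the third group had 347 partners in females and 645 in males, of which 314 were shared with the same sign. ENSMUST00000108522_at and ENSMUST00000086148_at thus had partners in females alone, while ENSMUST00000074557_at had them in both sexes.

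The transcripts with a large sex difference tended to vary together in females, though unevenly. Among pairs of the 11 transcripts at least 2 log2 units higher in females, near-identical pairs left out, 52 of 53 had a positive r, with a median of 0.40. Pairs of 1 of these with 1 of the 4 lower in females were negative in 37 of 44, with a median of -0.32. Pairs among the 4 were positive in 6 of 6, with a median of 0.38. In F2 males no pair of any of these kinds reached 0.5 in size, against 14, 14 and 2 in F2 females. The SDs of these transcripts in males were only 0.09 to 0.30, each below that in females, which leaves less spread to correlate. The pairs share transcripts and animals, so these counts are descriptions, and no share of positive pairs over all transcripts stands beside them. Some transcripts followed the tendency in part only. In F2 females ENSMUST00000026012_at had r of 0.41 with ENSMUST00000108522_at but 0.01 with ENSMUST00000029464_at. ENSMUST00000035625_at, lower in females, had r of -0.57 with ENSMUST00000108522_at but 0.16 with ENSMUST00000092597_at.

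The tendency to vary together showed in part in the animals at low levels. ENSMUST00000086148_at was at its lower level, nearer the males, in 20 females (15.3%). Of these 20, 14 were at the upper level of ENSMUST00000084343_at, 15 at the upper level of ENSMUST00000044094_at and 12 at the lower level of ENSMUST00000031633_at. Over all F2 females kept, the levels of ENSMUST00000086148_at corresponded to those of each of these 3 in 117 (89.3%), with levels taken in reverse for ENSMUST00000084343_at and ENSMUST00000044094_at. Most of these animals were at the more common level of both transcripts, 103 with ENSMUST00000084343_at, 102 with ENSMUST00000044094_at and 105 with ENSMUST00000031633_at. The levels of these 3 depend on the fit: none was peaked when each component had its own SD, ENSMUST00000044094_at was also not peaked with batch alone subtracted, after quantile normalization or with the left-out females included, and ENSMUST00000084343_at was not peaked on the deposited values. Other transcripts with a large sex difference matched less well. Of the 20 females, 6 were at the lower level of ENSMUST00000096418_at and 14 at its upper level. Over all F2 females kept, the levels of these 2 transcripts matched in 99 (75.6%). ENSMUST00000116252_at, also at 2 levels, had r of only 0.28 with ENSMUST00000086148_at. In all, 20 females lay nearer the male mean in at least 3 of the 15 transcripts. None of the females kept reached the male range of ENSMUST00000084343_at or ENSMUST00000044094_at.

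**Figure D4:**
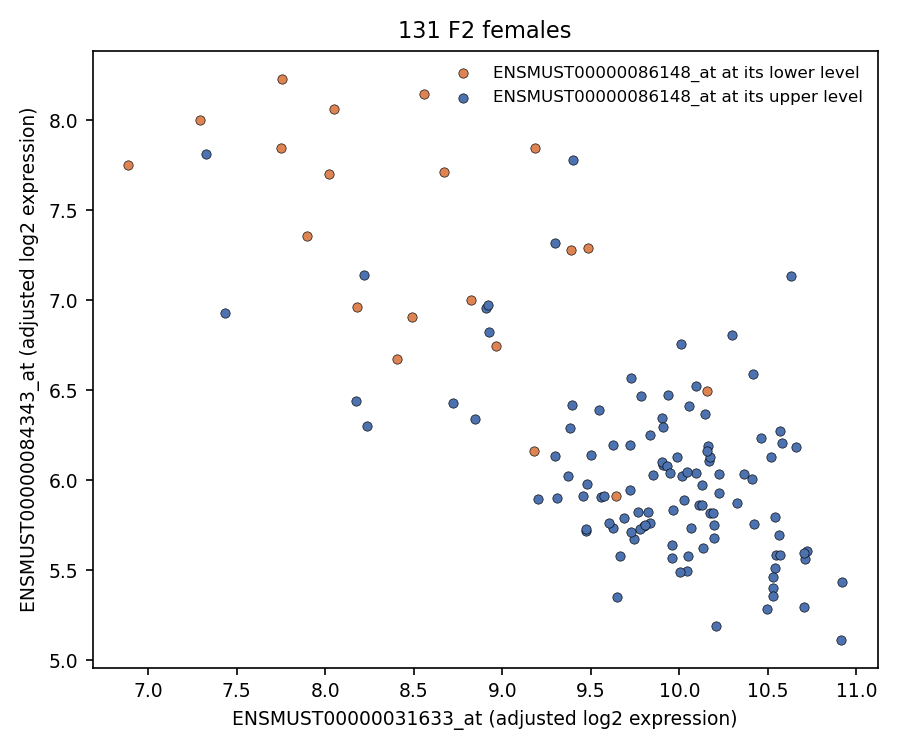
ENSMUST00000031633_at, higher in females (x axis), against ENSMUST00000084343_at, higher in males (y axis), in F2 females on adjusted log2 expression; each point is an animal. The 20 animals at the lower level of ENSMUST00000086148_at (orange) lie mostly at the upper left, where the first transcript is low and the second high, and the 111 at its upper level (blue) mostly at the lower right.

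Separate levels were sought with mixtures of 1 to 3 normal components of a common SD. A transcript was called peaked where 2 or 3 components fitted best by the Bayesian information criterion by more than 10, lay at least 3 SD apart and each held at least 5% of the animals. Of the 100, 32 were peaked, 30 at 2 levels and 2 at 3 levels, beside 0.305% of all transcripts (105 of 34406). With near-identical rows merged the 32 came to 23. In F2 males 0.735% of all transcripts were peaked (253 of 34406), and 14 of the 32 were among them, or 8 of the 23 after merging. Of the 68 not peaked in females, 17 were peaked in males. With the 4 left-out female libraries included, 29 were peaked. ENSMUST00000116252_at, ENSMUST00000044094_at and ENSMUST00000062620_at were then not peaked, and ENSMUST00000095218_at was no longer among the 100. A broad or skewed distribution can also meet this rule, and the levels are fitted components, not genotypes.

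The greatest separation was that of ENSMUST00000095218_at, with 8 females at a mean of 7.15 and 123 at a mean of 8.56, 4.67 SD apart. All MRL, F1 and SM females lay at its upper level. ENSMUST00000086148_at followed at 4.58 SD, with 20 females at 6.99 and 111 at 10.18. ENSMUST00000098672_at came next at 4.41 SD, with 37 females at 8.41 and 94 at 9.79, and then ENSMUST00000075982_at at 4.35 SD, with 120 females at 7.08 and 11 at 9.26. ENSMUST00000075982_at was not peaked when each component had its own SD. The smaller component of the 30 transcripts with 2 levels held between 5.34% and 30.5% of the animals. Its exact 95% binomial interval, which covers counting error only, contained 25% in 19 of the 30, or 11 with near-identical rows merged.

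The parental females were then placed on the levels of the F2 females. In 20 of the 32 peaked transcripts, or 12 after merging, the 3 MRL females were all at 1 level and the 3 SM females all at another. In 17 of these the share of a component also had an interval that contained 25%. ENSMUST00000084342_at, named after its values were seen, had 34 females at 8.61 and 97 at 10.18 (26.0% at the lower level, interval 18.7% to 34.3%). MRL females stood at 7.83, 8.29 and 8.40 on the deposited scale, F1 females at 10.06, 9.88 and 10.11, and SM females at 10.93, 10.70 and 10.68. The MRL animals matched the smaller group, and F1 lay with SM at the upper level. Males had 35 and 111 animals at the 2 levels.

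The 7 near-identical rows of the largest group had their smaller share at the upper level. ENSMUST00000101649_at had 93 females at 8.12 and 38 at 9.10, and 104 and 42 males at its 2 levels. On the deposited scale MRL females stood at 7.59, 7.73 and 7.83, and SM females at 9.39, 9.28 and 9.30. F1 females 1150 and 1149 were at 8.04 and 8.23 on that scale, near MRL, and F1 female 1145 was at 9.35, near SM. This animal was apart from the other F1 females in level in 11 of the 32 peaked transcripts, or 5 after merging, against 2 for F1 female 1150 and 0 for F1 female 1149. Without F1 female 1145, F1 females were thus at a single level in all 7 of these rows.

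Not every level matched a parent. ENSMUST00000099391_at and ENSMUST00000035288_at, near-identical and named after their values were seen, were the 2 transcripts with 3 levels. ENSMUST00000099391_at had 24 females at 6.82, 46 at 7.97 and 61 at 8.70, and the levels of the pair matched in 123 animals (93.9%). On the deposited scale MRL females stood at 8.60, 8.58 and 8.60, F1 females at 8.49, 8.13 and 8.05, and SM females at 8.52, 8.58 and 8.44. Set on the scale of the F2 females, the F1 females and SM female 1 lay at the middle level of ENSMUST00000099391_at. The MRL females and the other SM females lay at its highest level. No MRL, F1 or SM female was at the lowest level, which held 18.3% of the F2 females (interval 12.1% to 26.0%). MRL minus SM was 0.07 ± 0.10 log2 units (SE, n = 3 each, limma adjusted p = 0.648).

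**Figure D5:**
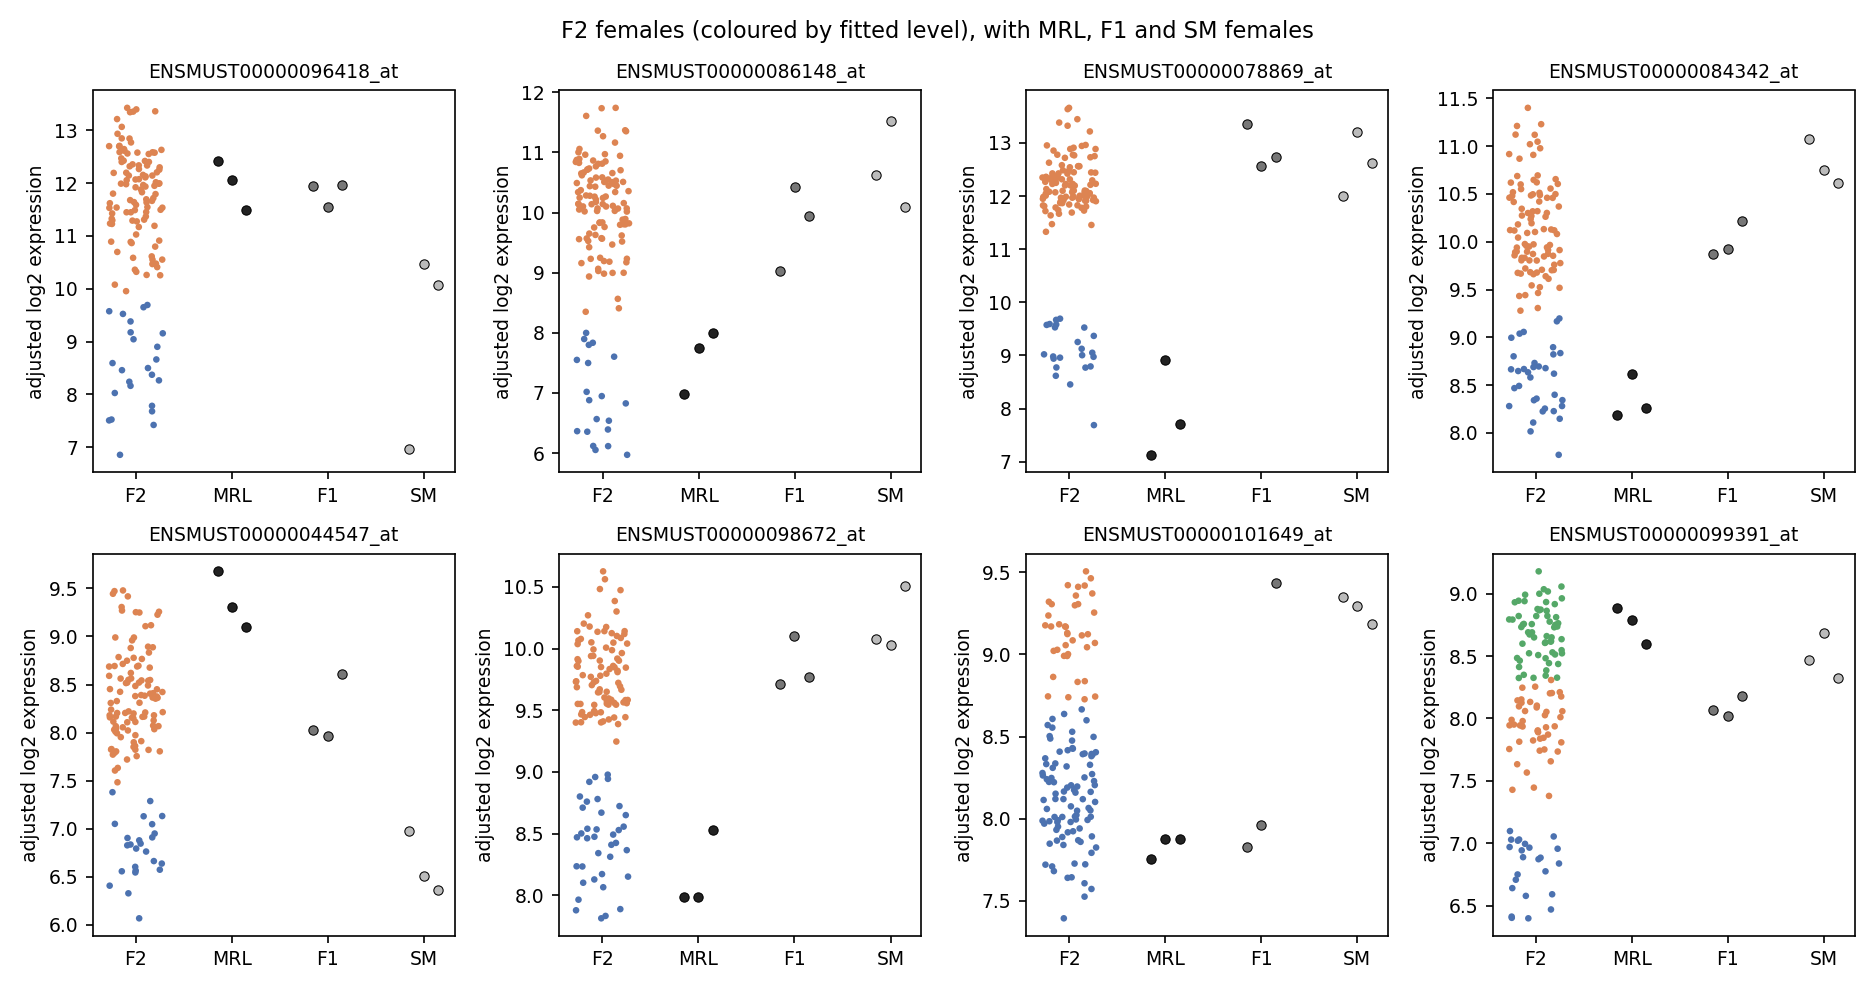
Adjusted log2 expression of 8 transcripts in the F2 females, coloured by fitted level (blue lowest, then orange, then green), and in 3 MRL, 3 F1 and 3 SM females (black, grey and light points) set on the same scale; sideways scatter is for display only. MRL and SM females lie at opposite levels of ENSMUST00000086148_at, ENSMUST00000078869_at, ENSMUST00000084342_at, ENSMUST00000044547_at, ENSMUST00000098672_at and ENSMUST00000101649_at, 1 F1 female (1145) lies with SM on ENSMUST00000101649_at, and no parental or F1 female lies at the lowest level of ENSMUST00000099391_at.

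The number of levels depended on the adjustment more than the number of peaked transcripts did. On the deposited values 36 of the 100 were peaked, and 13 of them at 3 levels, or 11 after merging. In 7 of the 13, or 6 after merging, the intervals of the 3 shares contained 25%, 50% and 25%. ENSMUST00000044547_at had 26 females at 6.65, 73 at 8.21 and 32 at 8.97 on this scale, with SM females at the lowest level, F1 females at the middle level and MRL females at the highest. ENSMUST00000098672_at had 37 at 8.34, 71 at 9.71 and 23 at 10.24, with MRL females at the lowest, F1 females at the middle and SM females at the highest. ENSMUST00000028938_at had 40, 67 and 24 females at its 3 levels, and ENSMUST00000112393_at had 33, 60 and 38, with MRL, F1 and SM females again at the lowest, middle and highest. The other two of the 6 had parental or F1 females split between levels. ENSMUST00000033213_at had 29, 68 and 34 females at its 3 levels, with MRL females at the lowest, SM females at the highest and F1 females at the middle and highest. ENSMUST00000001544_at had 35, 63 and 33, with SM females at the lowest and both MRL and F1 females split between the middle and highest.

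The rule also passed over transcripts whose best fit had a component too small or too near to count. ENSMUST00000078869_at was not called because a fit of 3 components was preferred, yet a fit of 2 components placed 23 females at 9.08 and 108 at 12.27, 7.04 SD apart. With such fits allowed, a choice made after seeing the data, 37 of the 100 were peaked, beside 112 of all transcripts. The lower level of ENSMUST00000078869_at held 17.6% of the females (interval 11.5% to 25.2%). On the deposited scale MRL females stood at 7.74, 8.73 and 8.17, F1 females at 12.24, 12.30 and 12.62, and SM females at 12.57, 12.52 and 12.49. MRL alone lay at the lower level.

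Finally the difference between the parental strains was tested, in females that had no part in choosing the 100. A limma fit of the 9 MRL, F1 and SM females over all 34406 transcripts called 67 of the 100 at an adjusted p under 0.05, beside 9.87% of all transcripts (3395). Of the 67, 17 were higher in MRL (4.11% of all) and 50 were higher in SM (5.76% of all). Near-identical rows were not merged in the counts of this paragraph. The 50 include all 7 rows of the largest group and the near-identical rows of the second group, so they repeat some measurements. In 80 of the 100 the 3 MRL and 3 SM females did not overlap, beside 30.9% of all. The median absolute difference was 1.27 log2 units in the 100 and 0.0920 in all transcripts. The count of all calls changed with the animals used. It was 1606 without MRL female 2, 1954 without MRL female 1 and 1976 without MRL female 3. Without SM female 2 it was 2132, without SM female 3 it was 2584 and without SM female 1 it was 3368. Each of these fits also has fewer animals in a group, so the falls do not single out an animal. Of the 100, between 51 and 71 were called whichever of the 9 females was left out. With the batch effects and slopes of F2 females subtracted, 54.1% of the calls over all transcripts were higher in MRL, beside 41.6% without.

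The parental difference varied in size among the most variable transcripts. ENSMUST00000078869_at was lower in MRL than in SM by 4.31 log2 units (MRL minus SM, -4.31 ± 0.19, SE, n = 3 each, limma adjusted p = 4.68e-07). ENSMUST00000026012_at, at 6.43, 6.62 and 6.34 in MRL females and 11.39, 11.01 and 10.21 in SM females, differed by -4.41 ± 0.46 (SE, limma adjusted p = 0.000269). ENSMUST00000086148_at, at 7.24, 7.56 and 7.77 in MRL females and 10.71, 11.00 and 9.83 in SM females, differed by -2.99 ± 0.28 (SE, limma adjusted p = 0.000122). Its partner ENSMUST00000108522_at differed by -2.75 ± 0.44 (SE, limma adjusted p = 0.00340). On each of these MRL was low and SM high, and no MRL female overlapped an SM female.

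ENSMUST00000096418_at went the other way, at 11.82, 11.38 and 11.60 in MRL females and 7.06, 9.93 and 10.14 in SM females, with SM spread widely. The difference was 2.56 ± 0.59 (SE, limma adjusted p = 0.0211), and it no longer passed without any 1 of the MRL females (limma adjusted p between 0.0537 and 0.0773). ENSMUST00000116252_at differed by -0.91 ± 0.20 (SE, limma adjusted p = 0.0177), which did not pass without MRL female 2 or MRL female 3 (limma adjusted p = 0.0662 for each). For the opposed pair, ENSMUST00000044547_at was higher in MRL by 2.67 ± 0.12 and ENSMUST00000098672_at was lower in MRL with a difference of -1.98 ± 0.08 (SE, n = 3 each, limma adjusted p = 4.68e-07 for both). The parents thus differed in opposite directions on the 2 transcripts that ran against each other in F2 females.

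Some of the 100 had parents close together. ENSMUST00000075982_at was at 6.97, 7.22 and 7.22 in MRL females and 7.18, 8.43 and 7.58 in SM females (-0.59 ± 0.26, SE, limma adjusted p = 0.175), while the fit placed 11 F2 females at an upper level with a mean of 9.26. On the scale of the F2 females, SM female 2, at 8.27, lay nearer that upper level than the lower one, and the other parental females lay at the lower level. ENSMUST00000095218_at was at 8.76, 8.57 and 8.74 in MRL females and 8.59, 8.72 and 8.83 in SM females, and 8 F2 females lay at a level lower than all of them. ENSMUST00000031633_at did not pass (0.48, limma adjusted p = 0.372). Among transcripts higher in males, ENSMUST00000044094_at was higher in MRL females by 2.19 ± 0.20 (SE, limma adjusted p = 0.000121) and ENSMUST00000084343_at by 1.08 ± 0.25 (SE, limma adjusted p = 0.0208).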

How the data were processed

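Each liver's total RNA was read on 1 Affymetrix Mouse Gene 1.0 ST array. The submitters' processing notes name RMA, the affy package and R 2.11, and the deposited values are the resulting log2 expression of Ensembl transcripts. RMA quantile-normalizes probe intensities over arrays and combines them by median polish, so differences are relative to the whole array. Which Ensembl release was used, and on which build, is not given in the sources used here. Precision is limited by how many arrays there are. Of 135 F2 females 131 were kept.

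The members, lists and tests were chosen with earlier results of these data known. No table used here named the transcripts (0 of 34406), so gene lists and cell type markers were not applied. Named were the 6 highest SDs, the leading pair of each of the 4 largest groups and the 4 peaked transcripts with the greatest separation, and every other transcript was chosen after its values were seen.

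From the deposited log2 values, batch and array SD were regressed out within each sex (residual degrees of freedom 116 in females and 132 in males). Correlations, mixtures and permutations used numpy 2.4.6 and scipy 1.17.1. MRL minus SM used limma 3.58.1 (lmFit and eBayes, R 4.3.3) with Benjamini-Hochberg adjustment, in 9 females and 3 groups. The procedures were tested on simulated data. Figures used matplotlib 3.10.9. Males of the parental strains and F1 entered 1 alternative only.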

Additional observations from a re-analysis of the deposited data

How the results depend on the processing

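Of the 100 transcripts, 50 remained with only 50 kept, and 81 to 100 remained under the other ways of ranking and adjusting tried. The 58 covarying transcripts became 26 after merging near-identical rows and ran from 46 to 64 under the other settings, including 55 to 61 with each batch left out in turn. Peaked transcripts numbered 6 at a separation of 4 SD and 24 to 37 otherwise. Calls between MRL and SM females over all transcripts numbered 2135 with F2 batch effects and slopes subtracted, and 1606 to 3415 with 1 of the 9 females left out, against 3395. With the replicate number as a block there were 2197 calls, and 72 of the 100. The numbers do not pair the animals: deviations of same-numbered MRL and SM females correlated at -0.08, 0.01 and 0.02. Of the 100, calls ran from 48 with the trend and robust options to 72. Direction was kept in all of these fits for the named transcripts that passed in the fit of the 9 females. For those that did not pass, such as ENSMUST00000095218_at, direction was not checked. Of the values in these fits, 300 stayed on the same side of the threshold, 34 lost it and 1 gained it, and the cause was not tested. A random block for batch could not be fitted, since 1 batch held 2 of the 9 females and the others 1 each.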

Other observations

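The left-out F2 female libraries did not all lie alike on the most variable transcripts. On ENSMUST00000086148_at the values were 6.22 in library 2293, 10.10 in 2116, 5.86 in 2295 and 5.75 in 2122. On ENSMUST00000084343_at, higher in males, they were 7.65, 10.89, 10.10 and 8.65 in the same order. Library 2295 lay below all kept F2 females in 13 of the 100 transcripts and above all of them in 2, and library 2122 in 10 and 3. Libraries 2293 and 2116 lay above all of them in 3 and 5 and below in none. Library 2116 thus combined a female level of the first transcript with a level of the second beyond that of any F2 female kept.

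ENSMUST00000073997_at was the 1 transcript of the 100 with an SD in males over 1.5 times that in females, 1.09 in F2 males against 0.62 in F2 females, and was at 3 levels in males. Its partners at an absolute r of at least 0.5 numbered 275 in females and 635 in males. ENSMUST00000023248_at had 275 partners in females and 781 in males, and 8 females (6.11%) and 11 of 146 males lay at its upper level. ENSMUST00000033213_at and ENSMUST00000070943_at placed every F2 female at the same level as each other, 28 low and 103 high, with MRL females at the lower and SM and F1 females at the upper level. These levels depended on the adjustment: neither transcript was peaked with batch alone subtracted or after quantile normalization, and on the deposited values ENSMUST00000070943_at was not peaked while ENSMUST00000033213_at was at 3 levels.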
